A study of Mus musculus with 6 samples.

Results

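The insulin-like growth factor (IGF) system was described here through 10 genes that were selected by symbol from the deposited count tables, namely the ligands Igf1 and Igf2, the receptors Igf1r and Igf2r, and the binding proteins Igfbp2, Igfbp3, Igfbp4, Igfbp5, Igfbp6 and Igfbp7. All 10 were found, each once, among the 23282 entries of the tables, and all 10 were among the 15239 genes expressed highly enough to be tested. The libraries came from male C57BL/6J mice aged 8 to 10 weeks, 1 hemisphere of the forebrain of each mouse being used for RNA after the olfactory bulbs and cerebellum had been removed. Mice labelled as exposed to water avoidance stress (WAS) spent 1 h on a platform surrounded by water, and mice labelled as control spent 1 h on such a platform in a container without water, with 3 libraries in each group. RNA was read by QuantSeq 3′ mRNA-Seq, which sequences the end of polyadenylated transcripts, so that the number of reads of a gene does not grow with the length of its transcript.

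IGF1 and IGF2 are secreted peptides related to insulin. Both signal through the tyrosine kinase receptor encoded by Igf1r, whereas the product of Igf2r, the mannose 6-phosphate receptor, takes up IGF2 and directs it to lysosomes. The binding proteins hold the ligands outside cells and thereby limit or prolong their action. In the adult brain, Igf2 is known chiefly from the meninges and the choroid plexus, and Igf1 from scattered neurons and from microglia.

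The groups follow the sample labels. Inside the tables, the count columns of the 3 libraries labelled WAS were headed with a name starting with WC and those of the 3 libraries labelled control with a name starting with WS. The meaning of these headings is not given in the sources used here. Each direction below is for the libraries labelled WAS relative to those labelled control and reverses if the labels were swapped.

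The libraries differed in the levels of markers of brain regions and of the choroid plexus. Total counts lay between 9248520 and 10502029. WAS replicates 1 and 3 stood apart from the other 4 libraries, with En1, a transcription factor gene of the midbrain, at 12.1 and 15.5 CPM (counts relative to the library total after TMM scaling, which corrects the totals for composition) against 0.107 CPM in WAS replicate 2 and 0 in each control library. The midbrain and hypothalamus list of 11 genes, En1 among them, summed to 70.3, 33.5 and 89.2 CPM in WAS replicates 1, 2 and 3, while the controls had 16.8, 15.1 and 66.0 CPM, of which 45.7 CPM in control replicate 3 were Oxt, the oxytocin gene. The 8 telencephalon markers summed to 357 and 481 CPM in WAS replicates 1 and 3 and to 1270 CPM in WAS replicate 2. The control libraries had between 835 and 1035 CPM. The gap between the WAS replicates lay mostly in Ppp1r1b and Drd1. In WAS replicates 1, 2 and 3 these were at 39.6, 595 and 115 CPM and at 34.3, 361 and 60.1 CPM. Neurod6 ran the other way, at 140, 83.2 and 129 CPM, and Emx1 was at 12.3, 10.8 and 13.5 CPM. The choroid plexus list of 12 genes, led by Ttr, summed to 20.1 CPM in control replicate 2 and 63.3 CPM in WAS replicate 1, and to between 946 and 1274 CPM in the others. Neuronal markers were present in every library, with Snap25 between 1143 and 1863 CPM. Of the 8 cerebellum and olfactory bulb markers, which summed to between 126 and 178 CPM, Gabra6, of cerebellar granule cells, was at or near 0, whereas Calb1, also of other neurons, was between 75.6 and 112 CPM, Pcp2 between 18.7 and 25.9 CPM and Zic1 between 10.4 and 44.7 CPM. In such bulk tissue, fewer cells of a type and less RNA per cell cannot be told apart.

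The 2 members that were lower in every library labelled WAS than in every control library were Igfbp4 and Igfbp6, a pattern shown by 5.55% of all genes tested, and by 11.7% in either direction. The 250 bases before the RefSeq start of each (GRCm38.p6) are shown as the upstream sequence of the members with that pattern. Igfbp4 lies on chromosome 11 (99040005 to 99052655, plus strand) and Igfbp6 on chromosome 15 (102144186 to 102149512, plus strand). The windows are chr11:99040994-99041243 and chr15:102143936-102144185, both on the plus strand (the Igfbp4 window precedes a start that lies inside the span of the gene), and the capitals mark the only matches to any of the 4 motifs searched.
Igfbp4: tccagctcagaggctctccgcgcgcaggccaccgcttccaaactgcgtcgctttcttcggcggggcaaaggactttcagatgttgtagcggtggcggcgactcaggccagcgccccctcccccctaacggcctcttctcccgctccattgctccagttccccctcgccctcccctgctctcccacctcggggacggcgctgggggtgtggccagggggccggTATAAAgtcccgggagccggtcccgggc
Igfbp6: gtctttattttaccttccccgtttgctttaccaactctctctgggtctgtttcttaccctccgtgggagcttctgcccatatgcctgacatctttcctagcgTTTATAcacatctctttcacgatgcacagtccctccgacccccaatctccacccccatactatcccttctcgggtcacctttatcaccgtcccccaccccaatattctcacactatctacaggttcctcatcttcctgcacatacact
Each motif was searched on both strands. They were GGGCGG for the GC box and TATAAA for the TATA box, and for the half-sites of the glucocorticoid receptor and of cAMP response they were AGAACA and then TGACG, and none of them overlaps another in letters here. The capitals in both windows are the TATA box, read in the direction of the gene and beginning 28 bases before the start in Igfbp4, and on the opposite strand, beginning 148 bases before it, in Igfbp6. The TATA box occurred in 12.4% of the 32851 RefSeq windows of the same length, and in these 2 of the 14 windows of the 10 members. The GC box occurred in 6 of the 14, those of Igf1r, Igf2, Igf2r, Igfbp2 and Igfbp7 among them, and in 32.7% of all windows. The glucocorticoid receptor half-site was found in 1 window each of Igf2 and Igfbp2 (16.1% of all windows), and that of cAMP response in 1 window each of Igf2 and Igf2r (17.8% of all windows). These matches describe letters in a window and were not measured as binding.

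Igfbp6 encodes a binding protein that prefers IGF2 to IGF1. WAS replicates 1, 2 and 3 had 79, 94 and 89 reads of it, and control replicates 1, 2 and 3 had 174, 127 and 172. In TMM-scaled CPM these were 7.74, 10.05 and 8.80 CPM against 16.6, 12.4 and 17.7 CPM. Every library labelled WAS lay below every control library, and control replicate 2 was the control nearest to them. The means were 8.86 ± 1.154 CPM (SD, n = 3) and 15.5 ± 2.77 CPM (SD, n = 3). The fitted level in the libraries labelled WAS was 0.570 of that in controls, with a 95% interval of 0.427 to 0.760, and with the labels swapped it would be 1.75 of that in controls instead. On the log2 scale the difference was -0.81 with a standard error of 0.19, and the edgeR p adjusted over all genes tested was 0.477. Igfbp6 was the only one of the 10 members that passed a fold change of 1.5 together with an unadjusted p under 0.05, criteria that 2.49% of all genes tested passed and 0.676% passed in the lower direction. An exact two-sided permutation test of the 3 against 3 libraries gave p = 0.1, the smallest that this design allows. At these counts the counting error alone amounts to 10.7% of the mean in the libraries labelled WAS, where the observed spread was 13.03%, and to 7.96% in the controls, where it was 17.8%.

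WAS replicate 2, which had En1 at 0.107 CPM, was at 10.05 CPM of Igfbp6, and the difference of this single library from the 3 controls was -0.63 on the log2 scale (edgeR adjusted p = 0.896). With 1 library on one side, that fit takes its spread from the controls alone and assumes that the single library varies like them. The 4 libraries in which the choroid plexus list summed to at least 946 CPM gave -0.87. When libraries were dropped one at a time, the difference of Igfbp6 stayed between -0.95 and -0.71. Its edgeR adjusted p lay between 0.555 and 1.00 in 5 of these fits and was 0.0313 without WAS replicate 2, a fit in which 484 genes had an adjusted p under 0.05 and 5.45% of all genes passed the fold change with an unadjusted p. The part of tissue composition in the level of Igfbp6 was not tested. No other gene shared a stretch of 50 bases with the end of the single annotated Igfbp6 transcript.

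Igfbp4 encodes a binding protein that inhibits IGF action until it is cut by the protease PAPP-A. WAS replicates 1, 2 and 3 had 650, 708 and 547 reads of it, against 988, 928 and 866 in the controls. In CPM these were 63.7, 75.7 and 54.1 against 94.0, 90.7 and 88.9. The groups did not overlap. The controls differed among themselves by no more than counting allows, with a coefficient of variation of 2.84% where counting error alone gives 3.28%, whereas the libraries labelled WAS varied by 16.8% with a counting error of 3.97%. A log2 fold change of -0.50 was fitted, with a standard error of 0.12 (edgeR adjusted p = 0.477), a fitted fold of 0.706 with a 95% interval of 0.592 to 0.844. Igfbp4 thus missed the fold change of 1.5, and its unadjusted p ranked 36 among the 15239 genes, next to that of Igfbp6 at 37.

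For Igfbp4, WAS replicates 1 and 3 gave the lower values. Without WAS replicate 2 its log2 fold change was -0.63 (edgeR adjusted p = 0.00372) and it passed the fold change of 1.5, as one of the 5.45% of genes called in that fit, while WAS replicate 2 alone differed from the controls by -0.27. Of 7 telencephalon markers tested, 7 had log2 fold changes below 0, and of 9 thalamus and habenula markers tested, 8 had log2 fold changes above 0, with summed levels of 662, 364 and 587 CPM in WAS replicates 1, 2 and 3 against 355 to 367 CPM in the controls. Their part in the level of Igfbp4 was not tested. The end of the longest of 6 annotated Igfbp4 transcripts shares 50 bases with transcripts of 161 other genes, as repeated sequence does. It was the only 1 of the 6 ends with such sharing. With multiple alignments counted, the origin of reads that fall on that end is uncertain.

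**Figure D1:**
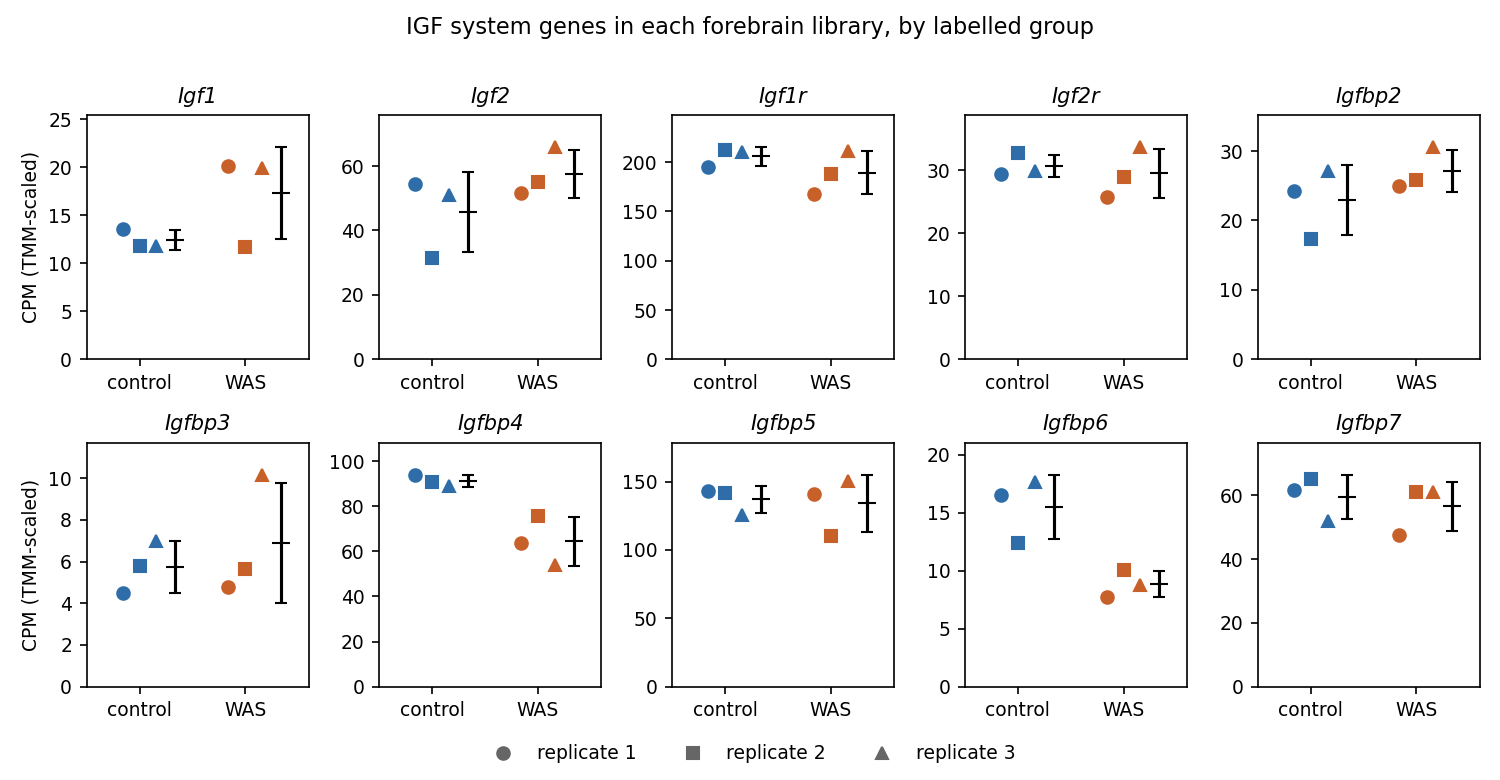
TMM-scaled CPM of each of the 10 genes (vertical axes, each from 0) in the 3 control-labelled and 3 WAS-labelled libraries, with symbols for the replicate number and black bars for the mean and SD of each group. The groups are separate for Igfbp4 and Igfbp6, Igf1 is high in WAS replicates 1 and 3 alone, and control replicate 2 has the lowest Igf2 and Igfbp2.

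Of the ligands, Igf1 was at 20.2, 11.8 and 20.0 CPM in WAS replicates 1, 2 and 3, while the controls had 13.6, 11.8 and 11.8 CPM. WAS replicates 1 and 3 were above every control, and WAS replicate 2 was the lowest library, next to control replicates 2 and 3. The group means were 17.3 ± 4.805 CPM (SD, n = 3) and 12.4 ± 1.03 CPM (SD, n = 3). The controls varied by 8.33%, close to the 8.90% that counting error gives, and the libraries labelled WAS by 27.8% against 7.61%. Between the groups the log2 fold change was 0.48 with a standard error of 0.21 (edgeR adjusted p = 0.672). Igf1 passed the fold change of 1.5 in the fit without WAS replicate 2, at 0.69 on the log2 scale with an edgeR adjusted p of 0.0354, and the sign turned around to -0.08 with WAS replicate 2 alone against the controls. The high values of Igf1 were thus those of the 2 libraries with En1 at 12.1 and 15.5 CPM and with the thalamus and habenula markers at their highest sums. Among the lists for cell types known to express Igf1, the 8 microglia markers summed to between 307 and 374 CPM under the WAS label and between 336 and 387 CPM in the controls, and the 8 interneuron markers to between 1374 and 1675 CPM and between 1581 and 1718 CPM, the lower ends of both lists being WAS replicate 1. The part of tissue composition in the level of Igf1 was not tested.

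Igf2 was at 51.5, 55.0 and 65.8 CPM in WAS replicates 1, 2 and 3, while the controls had 54.4, 31.5 and 51.0 CPM. Control replicate 2 was the one library far from the others, and the groups overlapped. Between the groups the log2 fold change of Igf2 was 0.33 with a standard error of 0.18 and a 95% interval of -0.06 to 0.73 (edgeR adjusted p = 0.736). Without control replicate 2 it was 0.12. Igfbp2, whose product binds both ligands and is made in meninges, choroid plexus and astrocytes, followed the same libraries, with 24.99, 25.9 and 30.5 CPM against 24.3, 17.3 and 27.1 CPM. Its lowest value was again in control replicate 2 and its highest in WAS replicate 3. For Igfbp2 the log2 fold change was 0.25 with a standard error of 0.17 (edgeR adjusted p = 0.822), and 0.08 without control replicate 2. The ratio of Igf2 to Igfbp2 stayed between 1.82 and 2.24 in the 6 libraries, a pair that was chosen after the values were seen.

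Beside these, the 13 leptomeningeal fibroblast markers summed to 194, 140 and 196 CPM in WAS replicates 1, 2 and 3, against 129, 102 and 151 CPM in control replicates 1, 2 and 3. Control replicate 2 was lowest here as well. Of the 12 tested, 12 had log2 fold changes above 0, where 50.2% of all genes did, with a median of 0.39. Dcn, a small proteoglycan of connective tissue, and Slc6a13, a GABA transporter of the meninges, passed the fold change of 1.5 with an unadjusted p under 0.05, and Slc6a20a was at or near 0. WAS replicate 1 had 63.3 CPM of the choroid plexus list and 51.5 CPM of Igf2, while control replicate 2, with 20.1 CPM of that list, had 31.5 CPM of Igf2. The 4 libraries with at least 946 CPM of the choroid plexus list gave log2 fold changes of 0.19 for Igf2 and 0.13 for Igfbp2. The 8 astrocyte markers summed to between 4350 and 4505 CPM under the WAS label and between 4404 and 4551 CPM in the controls. Of these 8, 5 had log2 fold changes above 0 and 3 below. An unadjusted edgeR p under 0.05 was found for 2, both above 0, beside 7.24% of all genes. The part of these cell types in the levels of Igf2 and Igfbp2 was not tested. All 9 annotated Igf2 transcripts end in sequence shared with another gene, in the longest case the read-through transcript Gm49394, so that reads of these genes cannot be told apart.

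**Figure D2:**
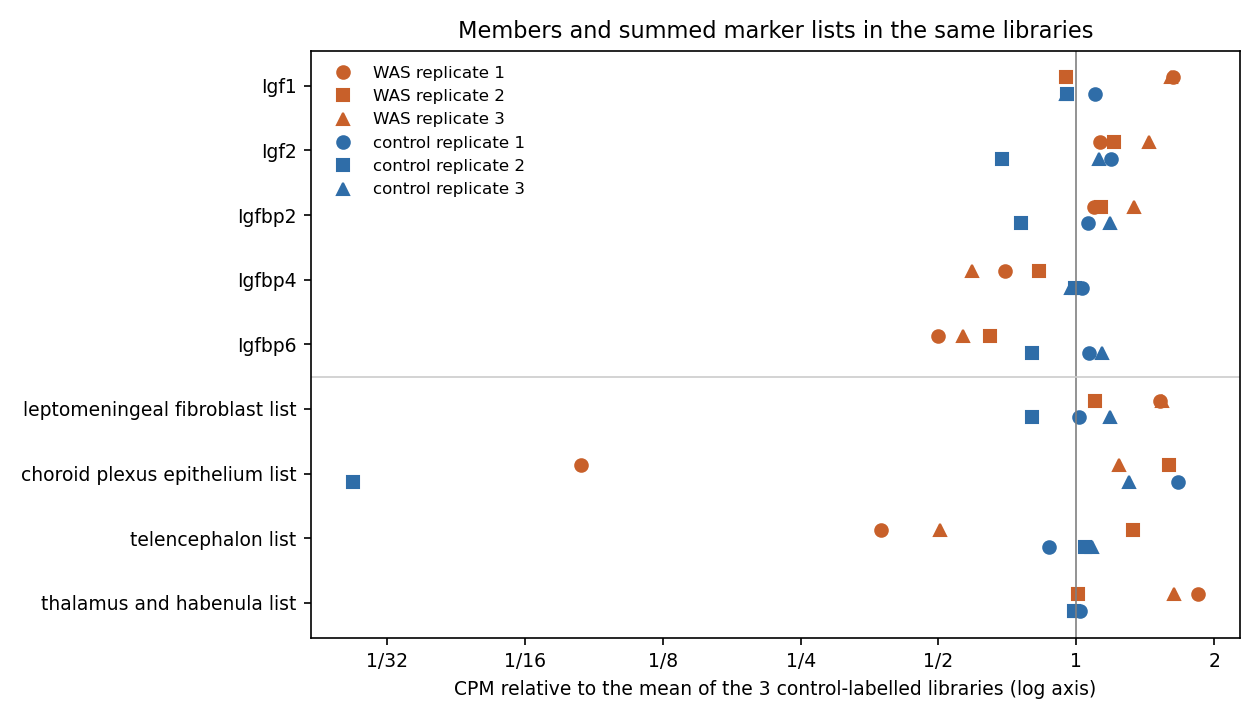
CPM of 5 members (upper rows) and summed CPM of 4 marker lists (lower rows) in each library, relative to the mean of the 3 control-labelled libraries, on a log axis; orange points are libraries labelled WAS and blue points libraries labelled control. WAS replicates 1 and 3 have low telencephalon sums, mostly through Ppp1r1b and Drd1, and high thalamus and habenula sums. They also have high Igf1 and low Igfbp4. Both Igfbp4 and Igfbp6 are below the controls in WAS replicate 2 too.

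For the receptors, differences were small and the intervals narrow. Igf1r, the receptor that carries the signal of both ligands, was at 168, 188 and 212 CPM in WAS replicates 1, 2 and 3, against 195, 212 and 210 CPM in the controls. The ranges overlapped, and WAS replicate 1 was the lowest library. The log2 fold change was -0.12 with a standard error of 0.10 (edgeR adjusted p = 0.865), and its 95% interval of -0.33 to 0.09 corresponds to folds of 0.794 to 1.06. For Igf2r the values were 25.8, 29.0 and 33.6 CPM against 29.4, 32.7 and 29.8 CPM, and WAS replicate 1 was again the lowest. The log2 fold change of Igf2r was -0.06 with a 95% interval of -0.33 to 0.22 (edgeR adjusted p = 0.966), and its sign turned around without WAS replicate 1, to 0.03. The antisense gene Airn overlaps Igf2r, and no annotated end of Igf2r shared a stretch of 50 bases with another gene. For both receptors a change of 1.5-fold in either direction therefore lay outside the interval. The ratio of Igf1r to Igf2r reads was between 6.29 and 7.05 in all 6 libraries, again a pair chosen after the values were seen.

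Igfbp5, which encodes a binding protein that attaches to extracellular matrix, was at 141, 111 and 151 CPM in WAS replicates 1, 2 and 3, against 143, 142 and 126 CPM in the controls. WAS replicate 2 was the lowest library and WAS replicate 3 the highest. The log2 fold change was -0.03 with a standard error of 0.12 and a 95% interval of -0.28 to 0.22 (edgeR adjusted p = 0.9745), and it was 0.09 without WAS replicate 2, 0.003 without control replicate 1 and 0.006 with total-count scaling. WAS replicate 2 alone differed from the controls by -0.31. Igfbp7, a protein of low IGF affinity that is abundant in brain vessels, was measured at 47.6, 60.9 and 61.0 CPM against 61.7, 65.2 and 51.9 CPM. The ranges overlapped, WAS replicate 1 being the lowest, and the log2 fold change was -0.08 with a 95% interval of -0.35 to 0.20 (edgeR adjusted p = 0.950) and 0.03 without WAS replicate 1. Beside Igfbp7, the 10 endothelial markers summed to between 244 and 280 CPM under the WAS label and between 263 and 279 CPM in the controls, with WAS replicate 1 the lowest library here too, and the 10 mural cell markers to between 116 and 126 CPM and between 112 and 126 CPM. Both annotated ends of Igfbp7 overlap the end of Polr2b on the opposite strand, and the counting is not stated to use strand.

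Igfbp3, the main carrier of IGF in serum, had the fewest reads of the 10, with 49, 53 and 103 in WAS replicates 1, 2 and 3, while the controls had 47, 59 and 68. In CPM, WAS replicate 3 was at 10.2, and the other 5 libraries were between 4.47 and 6.98. The log2 fold change of 0.26 had a standard error of 0.31 and a 95% interval of -0.41 to 0.94 (edgeR adjusted p = 0.921), and it was -0.13 without WAS replicate 3. A change of 1.5-fold in the upper direction therefore lay within the interval of Igfbp3.

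Seen over the 10 members, 4 had log2 fold changes above 0 and 6 below, with a median of -0.04 beside 0.0009 for all genes tested. An unadjusted p under 0.05 was found for 3 of them, Igf1 in the upper direction and Igfbp4 and Igfbp6 in the lower, and an edgeR adjusted p under 0.05 for 0, as for 0 of the 15239 genes. Of the whole table, 7.24% of genes were below this unadjusted p, 3.85% in the upper and 3.4% in the lower direction. Igf1 did not stay below this unadjusted p by limma on quantile-normalized values, nor by edgeR without WAS replicate 1, WAS replicate 3, control replicate 2 or control replicate 3, while Igf2 came below it with a replicate block and without control replicate 1. Summed over the 6 binding proteins, the level was 290, 289 and 315 CPM in WAS replicates 1, 2 and 3, against 344, 333 and 318 CPM in the controls, and over the 2 ligands it was 71.7, 66.8 and 85.8 CPM against 68.0, 43.3 and 62.8 CPM. The sums of the ligands overlapped, and those of the binding proteins, of which Igfbp4 is a part, came as near as 315 and 318 CPM. Of the 6 binding proteins, Igfbp2 and Igfbp3 had log2 fold changes above 0, with intervals that include 0.

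**Figure D3:**
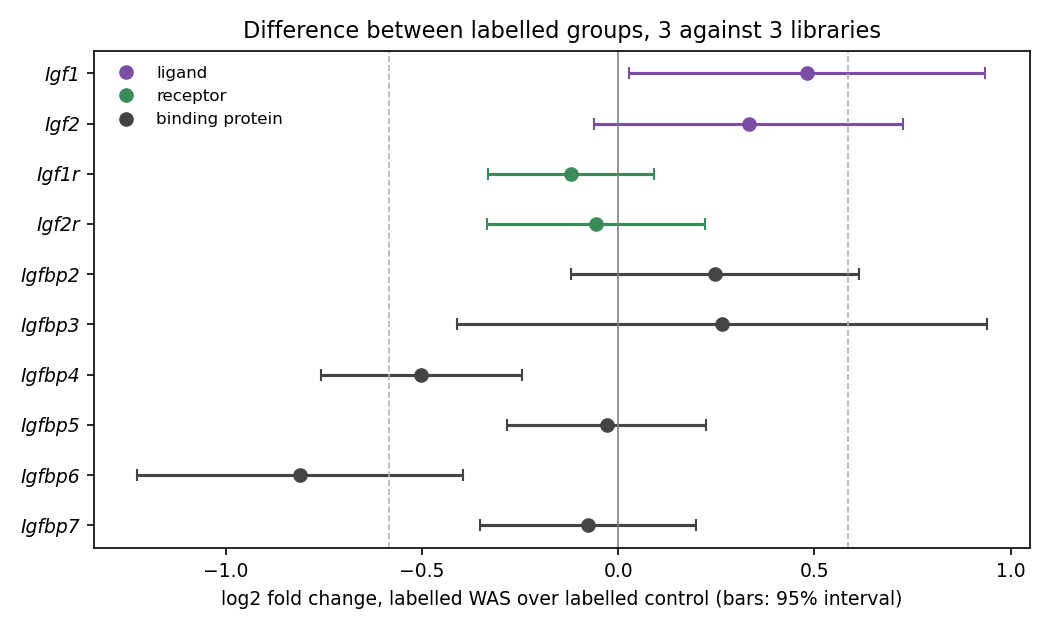
Log2 fold change of each member for libraries labelled WAS over libraries labelled control (horizontal axis), from edgeR with 95% intervals for 3 against 3 libraries, coloured by role; dashed lines mark a fold change of 1.5. The intervals of Igf1, Igfbp4 and Igfbp6 lie to one side of 0, and those of Igf1r, Igf2r, Igfbp5 and Igfbp7 lie within the dashed lines.

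The genes that act with or below the IGF receptors were read from the same fit. Of 48 other genes of IGF and insulin signalling, 39 were tested, 21 with a log2 fold change above 0 and 18 below, and the median was 0.006. None passed the fold change of 1.5 with an unadjusted p under 0.05 (edgeR, share of all genes 2.49%), and an unadjusted p under 0.05 was found for 3 of the 39, beside 7.24% of all genes. These 3, named after their values were seen, were Grb10, an adaptor that restrains insulin and IGF1 receptors, at 0.47, Pik3r1, a regulatory subunit of PI3 kinase, at -0.20, and Pdpk1, the kinase that activates AKT, at -0.30. Grb10 had counts of 330, 256 and 391 in the libraries labelled WAS against 264, 218 and 241 in the controls. Although the CPM of Grb10 in the groups did not overlap, as for 4 of the 39 genes and 11.7% of all genes, WAS replicate 2 lay close to control replicate 1. The 2 genes of the list with the most reads were Gsk3b, a kinase inhibited by AKT, with a log2 fold change of 0.02 (95% interval -0.16 to 0.20), and the adaptor Grb2 with -0.05 (95% interval -0.22 to 0.12).

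By role, in a selection made after the values were seen, Insr, the insulin receptor gene, was at 0.14 with a standard error of 0.14, and the insulin genes Ins1 and Ins2 were at 0 to 4 counts in each library. Irs1 and Irs2, the main docking proteins of both receptor types, were at 0.09 and -0.23 with standard errors of 0.17 and 0.22. Pappa, which encodes the protease that cuts Igfbp4, had 28, 11 and 24 counts under the WAS label against 17, 13 and 17 in the controls. Its fit gave a standard error of 0.43 around a log2 fold change of 0.44, so that a difference of the size seen for Igfbp4 was not detectable. Htra1, another protease of binding proteins, was at 0.09 with a standard error of 0.11. The kinases Akt1 and Akt2 were at 0.05 and -0.29, with standard errors of 0.09 and 0.16. Of Foxo1, Foxo4 and Foxo6, transcription factors held back by AKT, none was further than 0.08 from 0 on the log2 scale. The 9 genes that were not tested, Ins1, Ins2, Insrr, Igfbp1, Igfals, Stc2, Foxo3, Igf2bp1 and H19, had at most 17 counts in a library. H19, the non-coding gene next to Igf2, had 3, 2 and 17 counts in WAS replicates 1, 2 and 3, while the controls had 0, 0 and 7.

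**Figure D4:**
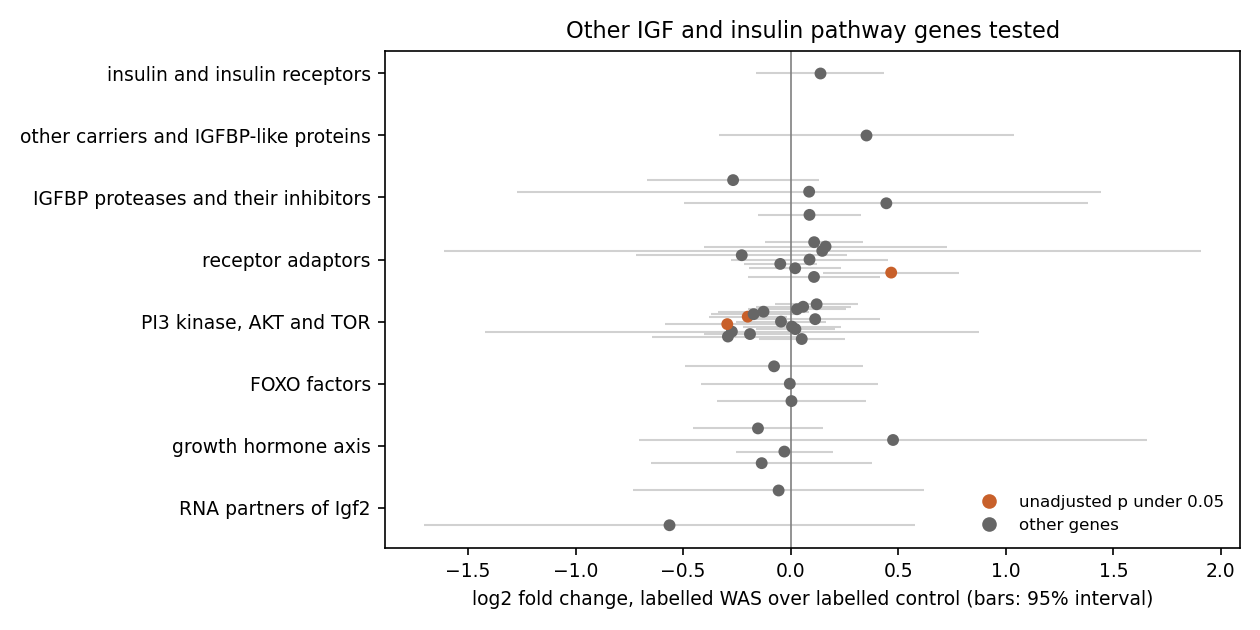
Log2 fold change (horizontal axis, bars for 95% intervals) of the 39 tested genes of IGF and insulin signalling outside the 10 members, grouped by role (vertical axis). Most intervals include 0, and the 3 coloured points, Grb10 to the right and Pik3r1 and Pdpk1 to the left, have an unadjusted p under 0.05.

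Of 8 further genes whose products carry an IGFBP domain, the CCN family among them, 6 were tested, and an unadjusted edgeR p under 0.05 was found for 0. Those with the most reads were Ctgf at 0.07 with a standard error of 0.27 and Nov at 0.12 with a standard error of 0.17. Ctgf was low in one library, with 412 counts in WAS replicate 1 against 642 to 1046 in the others.

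Genes with the pattern most like that of Igf2 and Igfbp6 were sought among 11155 other genes with a mean of at least 5 CPM, by Pearson's r of log2(CPM + 1) over the 6 libraries. For Igfbp6 the 5 closest were Adap1 (r = 0.996, Spearman's rho = 1), Wdr26, 2210408F21Rik, 0610030E20Rik and Ncbp1, the last with r = 0.9749. For Igf2 they were Sox6 (r = 0.984, Spearman's rho = 0.829), 1110065P20Rik, Ppa1, Msx1 and Prorsd1, the last with r = 0.963. An r above 0.9 was reached by 69 genes for Igfbp6 and by 67 for Igf2. The number that unrelated values over 6 libraries would give was not computed. The 6 points share their libraries, their depth and their tissue makeup, and the values are a description of likeness only.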

How the data were processed

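RNA of 3 libraries labelled WAS and 3 labelled control, 1 mouse each, was analysed. The authors prepared QuantSeq 3′ mRNA-Seq libraries, sequenced single-end reads of 75 bp, used Bowtie2 for alignment and Bedtools for counting, multiple alignments included. The submitters' processing notes name mm10. Versions and the annotation are not given in the sources used here. The deposited values are raw read counts per gene symbol, without molecular identifiers, so counting errors understate technical error. TMM scaling and edgeR 4.0.16 (quasi-likelihood, R 4.3.3) were applied to genes with a mean log2(quantile-normalized count + 1) of at least 2. Benjamini-Hochberg adjustment ran over all 15239 genes tested. Standard errors were derived from F. Percentages beside counts are shares of all genes tested. Alternatives used total-count scaling, DESeq2 1.42.0, limma 3.58.1, edgeR's exact test, other filters, a replicate block and omission of single libraries. Entries repeating a symbol (44) stayed separate. The test was checked on simulated counts. The members and lists were chosen with earlier results of these data known. The naming rule took the members, the most abundant 2 and the called genes of each list, and the 5 genes most like Igf2 and Igfbp6. The other pathway and marker genes were chosen after their values were seen. Of the marker lists, only values that bear on a member are given. Coordinates and upstream sequences are from RefSeq tables of GRCm38.p6 (14 windows for the 10 genes), and transcript ends, the last 500 bases, from GENCODE M21. Columns of the authors' own comparisons were not used.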

Additional observations from a re-analysis of the deposited data

How the results depend on the processing

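The count of members past a fold change of 1.5 with an unadjusted p under 0.05 was 1, Igfbp6, in every alternative but the fit without WAS replicate 2, where it was 3 (range of the leave-one-out fits 1 to 3). Igfbp6 and Igfbp4 kept a negative difference in all 15 alternatives, between -0.95 and -0.63 and between -0.63 and -0.27. The count of pathway genes was 0 to 1 with a library left out and 1 with WAS replicate 2 alone against the controls, a setting with 1 library on one side chosen after seeing the data, as was that of the 4 libraries with at least 946 CPM of the choroid plexus list. Over all genes, the calls by fold and unadjusted p were 380, and 261 to 831 with a library left out. At an adjusted p of 0.05 they were 0, and 22 with DESeq2, 30 with edgeR's exact test, 1 with WAS replicate 2 alone and 0 to 484 with a library left out. The directions of Igf2r, Igfbp3, Igfbp5 and Igfbp7 depended on single libraries. With a library left out they ran from -0.16 to 0.030, -0.13 to 0.47, -0.12 to 0.092 and -0.17 to 0.030. Total-count scaling, which moved the median of all genes to 0.038, gave 0.0064 for Igfbp5. WAS replicate 2 alone gave -0.084 for Igf1, -0.021 for Igfbp3 and 0.027 for Igfbp7, and the 4 libraries gave 0.076 for Igf2r and 0.097 for Igfbp7. The cause was not tested.

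The shared replicate numbers are not stated to mark a litter or day. Deviations from the group means correlated at 0.088, 0.12 and 0.10 between same-numbered libraries, and each library correlated best with its own number. With the replicate number as a block, 49 genes passed an adjusted p of 0.05, Igfbp6 remained the 1 member called, and its log2 fold change was -0.80. For Igfbp3 the spread between libraries was 42.0% in the libraries labelled WAS and 21.9% in the controls, where counting error alone gives 12.1% and 13.1%.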
